A study of Mus musculus with 2 samples.

Results

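The 39 genes described here are 17 chemokine receptors that signal through G proteins, 5 atypical receptors and 17 chemokine ligands, chosen by gene symbol out of 55536 genes annotated in GENCODE M21. Each of the 39 symbols matched 1 gene. Their transcripts were measured by sequencing of polyadenylated RNA from activated regulatory T cells, the CD4 T cells that express Foxp3 and restrain immune responses. The cells came from an adult male mouse aged 4 months of the strain Foxp3CreERT2 x Rosa26YFP. CreERT2 is a Cre recombinase that acts in the presence of tamoxifen, placed here under Foxp3, and the Rosa26 allele carries a yellow fluorescent reporter. The labels trace the cells to a bone marrow hematopoietic cell, and the sources used here do not state the tissue of isolation, any tamoxifen treatment or the way the cells were activated. There were 2 libraries, labelled as technical replicates 1 and 2 of the same biological sample, so 1 group and no second condition. Every ± below is the SD of these 2 libraries, which reflects preparation and counting and not the spread between animals. An SD of 2 values can fall below the counting error, above all for genes with few reads.

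Chemokines are small secreted proteins that bind receptors on leukocytes and direct where the cells move. The signalling receptors couple to inhibitory G proteins and lead to cell polarity, integrin activation and migration, while atypical receptors bind chemokines without that coupling and remove or present them. In regulatory T cells the receptor repertoire is known to separate cells that recirculate through lymph nodes from cells that enter inflamed tissue, barrier tissue or B cell follicles.

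Estimated gene reads came to 15076048 in library 1 and to 14635787 in library 2. The T cell markers Cd3e, Cd3d, Cd3g, Cd4, Lck, Cd2 and Cd5 were each present, with summed levels of 5129 and 5578 TPM in libraries 1 and 2, where TPM is a transcript's abundance scaled by its length and by the library's total. The 6 regulatory T cell markers summed to 2134 and 2176 TPM, of which Tnfrsf4 was highest at 614 ± 10.1 TPM and Foxp3 lowest at 22.4 ± 2.06 TPM. Markers of other cells that make or bind chemokines had far lower sums. In libraries 1 and 2 the summed TPM was 25.8 and 24.8 for 5 B cell markers, 16.9 and 25.3 for 6 natural killer and cytotoxic T cell markers, 6.26 and 6.66 for 6 dendritic cell markers, 3.85 and 6.25 for 6 monocyte and macrophage markers, and 0.97 and 0.34 for 6 stromal and endothelial markers. The highest markers of these lists, in the same order, were Igkc (23.3 ± 0.87 TPM, close to Foxp3), Cd8b1 (12.4 ± 3.44), H2-Aa (3.52 ± 0.735), Cd68 (2.53 ± 0.0566) and Col1a1 (0.26 ± 0.283). Cd14, Itgax, Clec9a, Siglech and Ncr1 had no reads in either library. The 4 neutrophil markers summed to 0.36 and 0.19 TPM and the 4 thymic epithelial markers to 0.89 and 1.64 TPM, and the 5 erythroid and platelet markers to 10.1 and 6.52 TPM.

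Of the 39 genes, 20 (51.3%) reached 1 TPM in both libraries, against 46.2% of the 22028 protein-coding genes. That share is near the background. At 10 TPM the count was 14 (35.9%, against 29.5% of protein-coding genes), and at 100 TPM it was 4 (10.3%, against 5.25%). At the level of 1 TPM in both libraries, 12 of 17 signalling receptors, 1 of 5 atypical receptors and 7 of 17 ligands were present. The median level of the signalling receptors was 12.6 TPM in library 1 and 16.2 TPM in library 2, and that of the ligands was 0.52 and 0.47 TPM. In bulk RNA a low level can come from few cells with many transcripts or many cells with few, and these cannot be told apart.

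**Figure D1:**
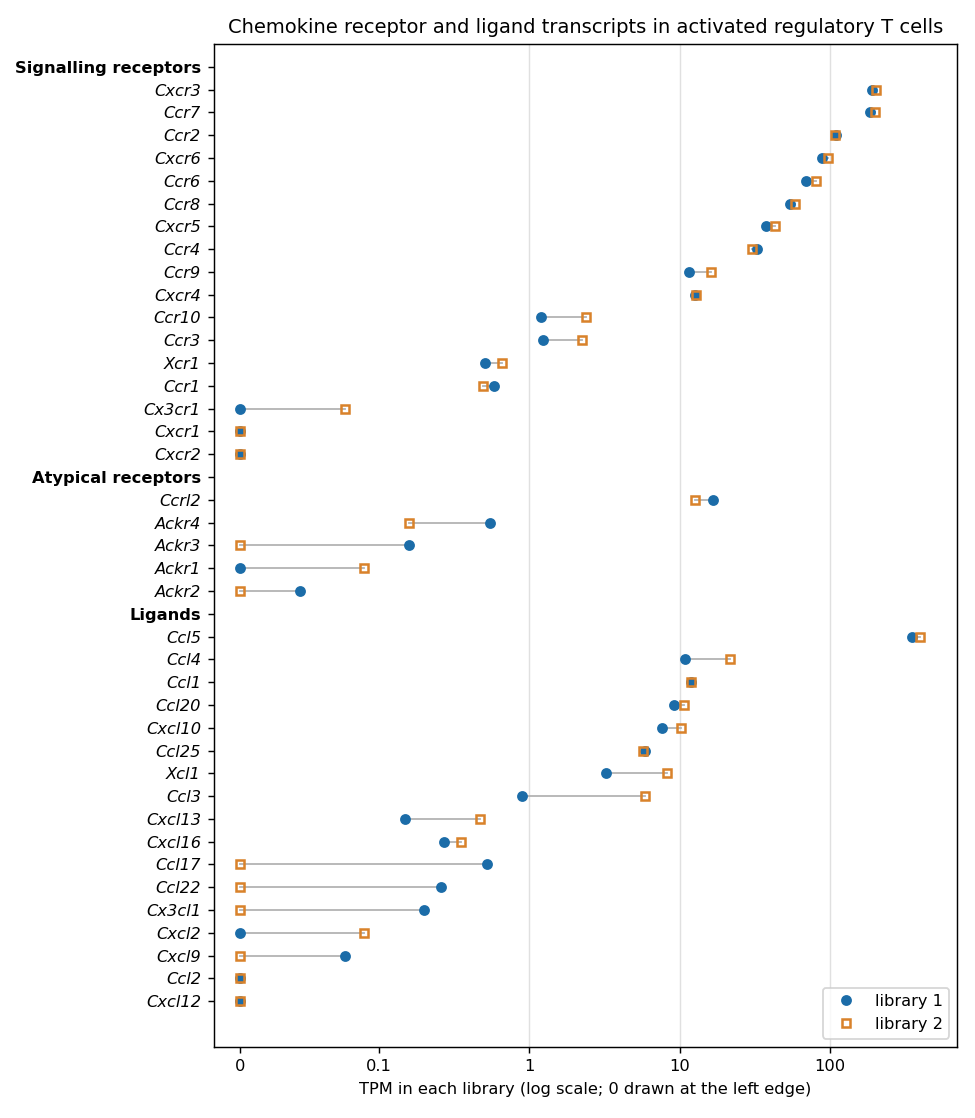
TPM of each member in library 1 (filled circles) and library 2 (open squares) on a log axis, with genes ordered by mean level within each class and 0 drawn at the left edge. Ccl5 stands above all other members, 8 signalling receptors form a ladder from Cxcr3 at 196 TPM to Ccr4 at 31.2 TPM, and most atypical receptors and ligands lie under 1 TPM.

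Cxcr3, the receptor that guides T cells to tissue in type 1 inflammation, and Ccr7, the receptor for entry into lymph nodes, were the 2 highest receptors. Cxcr3 had 190.1 TPM in library 1 and 202 TPM in library 2, from 3965 and 3967 estimated reads. Ccr7 had 184 and 199 TPM, from 4397 and 4486 reads. Cxcr3 was above Ccr7 within each library, but the values of the pair overlapped across libraries, so the 2 genes were not counted as separated. Together they held 46.3% ± 0.104 of the summed TPM of the 22 receptors. Ccr2, the monocyte chemoattractant receptor that also marks effector T cells, followed at 109 TPM in library 1 and 107 TPM in library 2, the only other receptor at 100 TPM or more in both. Its estimated reads were 4228.87 and 3940.7, and 1.91% of the 50-base windows of its transcripts also occur in other genes.

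A second tier held receptors of effector and tissue-resident T cells. Cxcr6, which binds membrane-anchored Cxcl16, had 88.5 and 97 TPM in libraries 1 and 2. Ccr6, a receptor of gut and skin homing, had 68.7 and 79.9 TPM, and Ccr8, a receptor known to mark activated regulatory T cells in tissue and tumours, had 54.4 and 58 TPM. Cxcr5, which brings cells into B cell follicles, had 37.2 and 42.8 TPM. Ccr4, a skin-homing receptor of memory and regulatory T cells, had 32.4 and 30.1 TPM. In each of the 6 neighbouring steps from Ccr7 to Ccr4, the TPM values of the libraries did not overlap. The order by TPM, Ccr7, Ccr2, Cxcr6, Ccr6, Ccr8, Cxcr5, Ccr4, was thus the same in both libraries. This order holds per length of transcript. By reads Ccr7, Ccr2 and Cxcr6 kept their places, but Cxcr5, with 932.88 and 984.19 in libraries 1 and 2, was above Ccr8, with 760 and 765. Ccr7 was 4.79 ± 0.21 times as abundant as Cxcr5 by TPM, and Ccr8 was 1.8 ± 0.174 times as abundant as Ccr4. The highest 5 receptors, Cxcr3 to Ccr6, held 79.2% ± 0.11 of the summed receptor TPM.

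Ccr9 and Cxcr4 were the last 2 signalling receptors at 10 TPM or more in both libraries. Ccr9, the small intestine homing receptor, had 11.6 TPM in library 1 and 16.2 TPM in library 2. It lies across Lztfl1 and the pseudogene Gm10052 on the opposite strand, the pseudogene at 5.17 and 9.61 TPM, and 20.1% of its 50-base windows also occur in other genes. Cxcr4, the bone marrow retention receptor, had 12.6 and 12.9 TPM. Their library values overlapped. Ccr7 was 15 ± 0.544 times and Cxcr3 15.4 ± 0.345 times as abundant as Cxcr4.

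The remaining signalling receptors were scarce or without reads. Ccr10, a receptor of skin homing, had 1.2 and 2.39 TPM in libraries 1 and 2, and Ccr3, known from eosinophils and type 2 T cells, had 1.23 and 2.25 TPM. Xcr1, the receptor that marks cross-presenting dendritic cells, had 0.51 and 0.66 TPM, and Ccr1, a receptor of monocytes and neutrophils, had 0.58 and 0.49 TPM. These 4 genes had between 16 and 85 reads per library. Cx3cr1, the fractalkine receptor, had 0 and 3 reads. Cxcr1 and Cxcr2, the neutrophil receptors, had no reads in either library. A count of 0 allows up to 3 reads, which corresponds to 0.195 and 0.207 TPM for Cxcr1 and to 0.0936 and 0.0992 TPM for Cxcr2 in libraries 1 and 2, counting error only.

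Among atypical receptors Ccrl2, which binds chemerin and does not signal, was the single member above 1 TPM, with 16.5 TPM in library 1 and 12.7 TPM in library 2. Its reads, 275 and 239, differed less than its TPM, and the effective length of the transcripts they were assigned to was 1341 bases in library 1 and 1610 bases in library 2. Ackr4, a scavenger of homeostatic chemokines, had 0.55 and 0.16 TPM, from 15.3 and 3 reads. It lies across Acad11 on the opposite strand, which had 4.46 and 7.35 TPM, and 7.21% of its 50-base windows also occur in another gene. Ackr3, the scavenger of Cxcl12, had 6 reads in library 1 and 0 in library 2. Ackr1, the red cell and venule receptor, had 0 and 1 reads, and Ackr2, a scavenger of inflammatory CC chemokines, had 1 and 0 reads. The 5 atypical receptors held 1.82% ± 0.451 of the summed receptor TPM.

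Ccl5, a chemoattractant made by effector and memory T cells, was the most abundant of the 39 genes, at 349 TPM in library 1 and 393 TPM in library 2. Its values did not overlap with those of any other member, and its mean of 371 ± 31.1 TPM exceeded that of 98.6% of protein-coding genes. Ccl5 alone held 85.6% ± 2.33 of the summed TPM of the 17 ligands, and it was 1.89 ± 0.0805 times as abundant as Cxcr3. This order holds per length of transcript. By reads Ccl5 had 2097 and 2225 in libraries 1 and 2, fewer than Cxcr3 with 3965 and 3967, and its effective length is 484 bases against 1682 bases for Cxcr3. The summed TPM of receptors was 1.93 ± 0.126 times that of ligands, and 13.7 ± 3.09 times without Ccl5. Without scaling by length it was 7 in the same table and 9.73 in a second deposited gene table of whole-number counts.

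The other ligands at 10 TPM or more in both libraries were Ccl4 and Ccl1. Ccl4, an inflammatory chemokine of activated T cells, had 10.8 TPM in library 1 and 21.5 TPM in library 2. Ccl1, the ligand of Ccr8, had 11.8 TPM in each library, from 69 and 65 reads. Ccl20, the ligand of Ccr6, had 9.09 and 10.6 TPM. The interferon-induced Cxcl10 had 7.68 and 10.2 TPM, and Xcl1, which attracts dendritic cells, had 3.23 and 8.29 TPM. Ccl25, the gut and thymus ligand of Ccr9, had 5.92 and 5.68 TPM. Ccl25 overlaps Elavl1 and Cxcl10 overlaps Art3, both on the opposite strand, as Cxcr6 overlaps Fyco1, Ccr10 overlaps Cntnap1 and Xcl1 overlaps Gm20743. The sources do not state whether strand was used in counting. Of the 50-base windows of their transcripts, compared on both strands, none of Cxcr6 or Ccr10, 2.06% of Ccl25, 3.59% of Cxcl10 and 10.8% of Xcl1 also occur in other genes. Ccl3, a relative of Ccl4, had 0.9 TPM in library 1 and 5.84 TPM in library 2 and so passed 1 TPM in 1 library.

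The last 9 ligands averaged under 1 TPM. Cxcl16 had 9 and 11 reads, Cxcl13, the follicular chemokine, had 2 and 6 reads, and Ccl22 and Ccl17, the ligands of Ccr4 made by dendritic cells, had 7 and 3 reads in library 1 and none in library 2. Cxcl9, Cx3cl1 and Cxcl2 had between 0 and 2 reads per library. Ccl2, the ligand of Ccr2, and Cxcl12, the stromal ligand of Cxcr4, had no reads in either library, which allows up to 0.267 and 0.283 TPM for Ccl2 and up to 0.0726 and 0.0769 TPM for Cxcl12 in libraries 1 and 2. Over the whole order of 39 genes, 12 of the 38 neighbouring steps were between genes whose library values did not overlap. From Xcr1 downward no neighbours were separated.

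Ligands and the receptors known to bind them were set side by side for 19 pairs. In 7 pairs the receptor reached 1 TPM in both libraries and the ligand did not. These were Ccr4 with Ccl17 and Ccl22, Ccr2 with Ccl2, Cxcr4 with Cxcl12, Cxcr5 with Cxcl13, Cxcr6 with Cxcl16, and Cxcr3 with Cxcl9. In 5 pairs both did. Ccr8 was 4.76 ± 0.206 times as abundant as Ccl1 and Ccr6 was 7.54 ± 0.0284 times as abundant as Ccl20. Ccl20 had 84 and 96 reads in libraries 1 and 2, with an exact 95% Poisson interval of 7.25 to 11.3 TPM in library 1. The SD of the ratio of Ccr6 to Ccl20 is thus smaller than its counting error. Cxcr3 was 22.2 ± 3.59 times as abundant as Cxcl10. Ccr9 averaged 13.9 TPM and Ccl25 averaged 5.8 TPM. Ccr3 and Ccl5 formed the fifth such pair, with the receptor at 1.74 and the ligand at 371 TPM. In 3 pairs the ligand reached 1 TPM in both libraries and the receptor did not, Ccr1 with Ccl5, Xcr1 with Xcl1 and Ackr4 with Ccl25. In 4 pairs neither did. Among these was Ccr1 with Ccl3, where Ccl3 had 0.9 TPM in library 1 and 5.84 TPM in library 2.

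**Figure D2:**
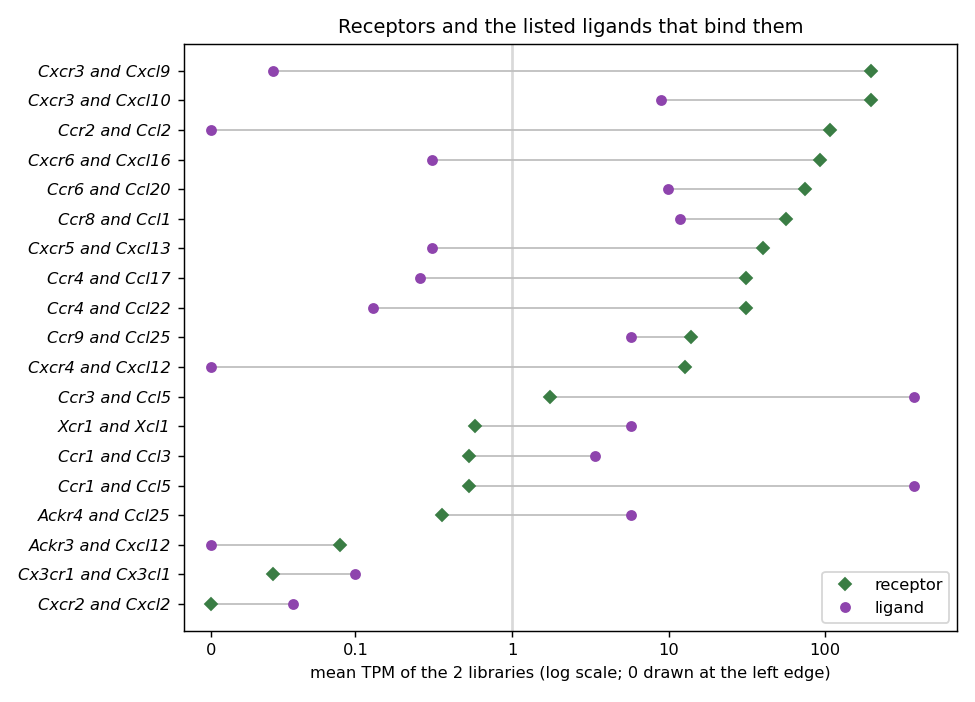
Mean TPM of the receptor (diamonds) and of the listed ligand (circles) for 19 pairs on a log axis, ordered by the receptor's level, with 0 drawn at the left edge and the line at 1 TPM. Receptors lie to the right of their ligands in the upper 11 rows, and ligands to the right of their receptors where the ligand is Ccl5, Xcl1, Ccl3, Cx3cl1, Cxcl2 or, for Ackr4, Ccl25.

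Neighbouring members differed widely in level in 2 stretches of the genome. On mm10, 6 receptor genes lie within 435 kb of chromosome 9, chr9:123678439-124113557, in the order Ccr9, Cxcr6, Xcr1, Ccr1, Ccr3, Ccr2. Their mean levels in this order were 13.9, 92.7, 0.585, 0.535, 1.74 and 108 TPM, so Xcr1, Ccr1 and Ccr3 lay between Cxcr6 and Ccr2 with far lower levels. Ccr2 was 203 ± 21.8 times as abundant as Ccr1 and 67.9 ± 28.8 times as abundant as Ccr3, and Cxcr6 was 160 ± 18.8 times as abundant as Xcr1. These ratios rest on few reads of the lower gene, 20 and 16 for Ccr1 and 28 and 34 for Xcr1 in libraries 1 and 2. On chromosome 11, Ccl5, Ccl3 and Ccl4 lie within 139 kb, chr11:83525778-83664683. Ccl5 was 25.2 ± 9.91 times as abundant as Ccl4 there. Against Ccl3 the ratio was 388 in library 1 and 67.3 in library 2, where Ccl3 had 8 and 49 reads in these libraries.

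**Figure D3:**
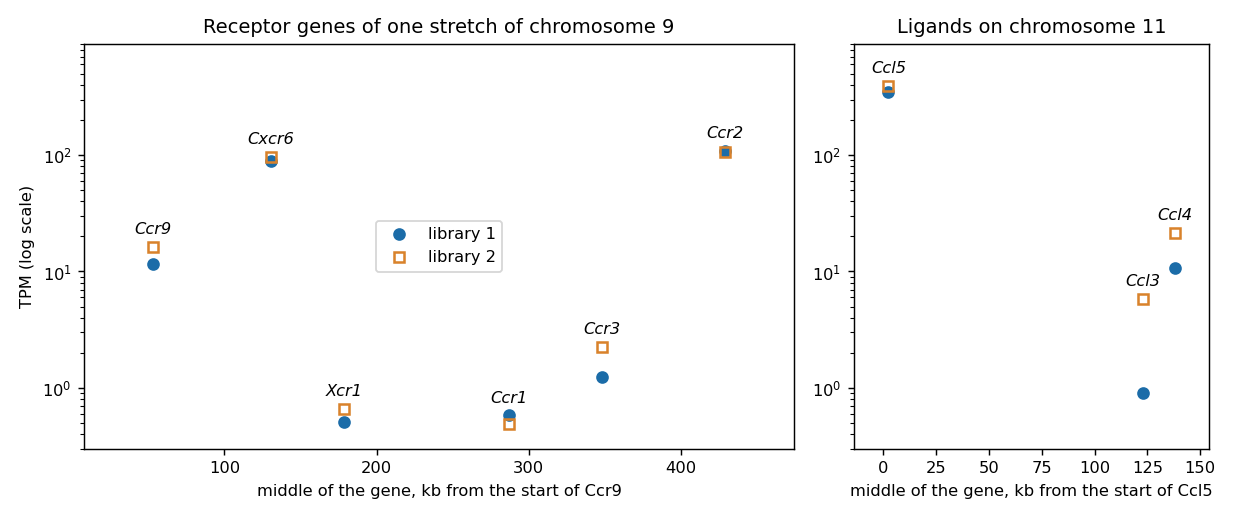
TPM on a log axis in library 1 (filled circles) and library 2 (open squares) against the distance of each gene's middle from the start of the first gene, for 6 receptor genes of chromosome 9 (left) and 3 ligand genes of chromosome 11 (right). Cxcr6 at 92.7 and Ccr2 at 108 TPM stand on either side of Xcr1, Ccr1 and Ccr3, which average 0.585, 0.535 and 1.74 TPM.

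The promoter windows of the 6 chromosome 9 receptors and of Cxcr3 are shown because the neighbours differ widely in level and Cxcr3 is 1 of the 2 highest receptors. Each window is the 300 bases from 250 before to 50 after the RefSeq start site (GRCm38.p6), read along the gene's strand, and capitals mark matches to the motifs named after them.
Ccr9: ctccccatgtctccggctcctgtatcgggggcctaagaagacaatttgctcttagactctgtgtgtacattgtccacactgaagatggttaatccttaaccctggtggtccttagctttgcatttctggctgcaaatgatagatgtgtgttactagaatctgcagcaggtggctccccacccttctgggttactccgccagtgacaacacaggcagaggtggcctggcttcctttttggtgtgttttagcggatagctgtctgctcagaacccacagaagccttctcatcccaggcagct
Cxcr6: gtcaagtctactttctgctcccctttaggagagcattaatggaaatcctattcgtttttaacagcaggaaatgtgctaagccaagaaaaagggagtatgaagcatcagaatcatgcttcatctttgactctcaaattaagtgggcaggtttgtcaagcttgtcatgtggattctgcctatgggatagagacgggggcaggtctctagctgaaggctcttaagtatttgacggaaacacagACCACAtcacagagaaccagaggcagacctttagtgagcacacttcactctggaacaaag
Xcr1: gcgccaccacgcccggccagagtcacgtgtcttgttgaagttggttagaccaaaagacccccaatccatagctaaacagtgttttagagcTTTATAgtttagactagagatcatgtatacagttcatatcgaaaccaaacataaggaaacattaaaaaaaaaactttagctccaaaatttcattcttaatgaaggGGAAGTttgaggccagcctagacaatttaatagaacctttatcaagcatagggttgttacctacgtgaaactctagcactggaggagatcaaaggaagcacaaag
Ccr1: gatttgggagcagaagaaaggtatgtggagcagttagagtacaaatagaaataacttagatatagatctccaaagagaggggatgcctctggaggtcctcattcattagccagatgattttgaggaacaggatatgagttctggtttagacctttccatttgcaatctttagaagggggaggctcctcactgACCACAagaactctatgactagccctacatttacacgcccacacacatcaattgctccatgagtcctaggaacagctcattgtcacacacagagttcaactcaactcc
Ccr3: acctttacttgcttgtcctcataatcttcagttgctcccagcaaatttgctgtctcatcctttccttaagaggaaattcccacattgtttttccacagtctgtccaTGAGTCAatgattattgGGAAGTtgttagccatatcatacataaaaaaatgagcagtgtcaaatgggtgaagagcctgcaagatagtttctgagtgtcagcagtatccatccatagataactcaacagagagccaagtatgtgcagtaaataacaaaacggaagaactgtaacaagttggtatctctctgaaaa
Ccr2: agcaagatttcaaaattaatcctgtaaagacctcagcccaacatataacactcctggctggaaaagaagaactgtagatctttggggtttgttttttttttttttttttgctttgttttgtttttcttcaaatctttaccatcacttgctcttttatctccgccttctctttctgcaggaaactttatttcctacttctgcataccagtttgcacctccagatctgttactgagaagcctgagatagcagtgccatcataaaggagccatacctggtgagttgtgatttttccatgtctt
Cxcr3: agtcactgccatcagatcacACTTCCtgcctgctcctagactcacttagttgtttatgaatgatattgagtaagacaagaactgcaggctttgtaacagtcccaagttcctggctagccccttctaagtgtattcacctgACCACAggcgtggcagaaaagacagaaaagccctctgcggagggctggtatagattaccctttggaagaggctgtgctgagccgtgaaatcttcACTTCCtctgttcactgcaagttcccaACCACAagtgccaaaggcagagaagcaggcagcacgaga

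These windows lie at chr9:123766961-123767260 (Ccr9, plus strand), chr9:123806227-123806526 (Cxcr6, plus), chr9:123861980-123862279 (Xcr1, minus), chr9:123968643-123968942 (Ccr1, minus), chr9:124021721-124022020 (Ccr3, plus), chr9:124101933-124102232 (Ccr2, plus) and chrX:101734098-101734397 (Cxcr3, minus). They were searched on both strands for 5 short motifs. The letters were TATAAA for the box that positions transcription starts, GGAAGT for the core that ETS factors bind, and TGTGGT for the core that Runx factors bind. The AP-1 site was searched as TGACTCA, and the core bound by forkhead factors, the family of Foxp3, was searched as GTAAACA. No match overlapped another in these windows. Cxcr3 held 2 ETS cores and 2 Runx cores. Cxcr6 and Ccr1 each held 1 Runx core, so the low Ccr1 and the high Cxcr6 had the same motif. Xcr1 held the letters of the TATA box, 160 bases before the start site, and an ETS core. Ccr3 held an ETS core and an AP-1 site, and Ccr9 and Ccr2 held none of the 5.

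Across the 32 members with a window in the table, 15 (46.9%) held the ETS core, 11 (34.4%) the Runx core, 7 (21.9%) the TATA box and 4 (12.5%) the AP-1 site, and none held the forkhead core. Among all 32851 windows the shares were 23.8%, 16.8%, 13.6% and 5.2% in the same order, and 3.65% for the forkhead core. Each of the 32 members has 1 window here, while all windows of a gene with several count among the 32851. Ccl5, Ccr7, Cxcr5 and Ccl4, all at 10 TPM or more in both libraries, have no window here, nor have Ccr10, Ccl2 and Cxcl16. By level, the ETS core was in 4 of 10 windows of members at 10 TPM or more, in 5 of 5 between 1 and 10 TPM and in 6 of 17 below. The Runx core was in 3 of 10, 2 of 5 and 6 of 17. The TATA box was in 1 of 10, 0 of 5 and 6 of 17. The windows were poor in CG dinucleotides, with a median of 4 among members against 7 among all windows. It was 3.5 in the 10 members with a window at 10 TPM or more and 5 in the 17 with a window below 1 TPM in a library. The highest counts were 52 in Ccl25 and 20 in Cxcr4 and Cxcl12. A match describes the letters of the window and is not a site, and no match says only that these letters are not in it.

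Transcript models differed in how firmly they were assigned. Of the 14 members at 10 TPM or more in both libraries, 10 have several annotated transcripts. A single transcript led in both libraries for Ccl5 (Ccl5-201, 99.2% ± 0.354 of the gene's TPM), Cxcr4 (Cxcr4-201, 99.1% ± 1.21), Ccl1 (Ccl1-202, 94.1% ± 1.73), Cxcr6 (Cxcr6-201, 93.1% ± 1) and Cxcr5 (Cxcr5-201, 74.6% ± 1.77). Ccr4 was divided between Ccr4-201 (54.5% ± 0.41) and Ccr4-202, and Ccr2 between the spliced Ccr2-201 (47.1% ± 4.1) and the single-exon Ccr2-202 (37.8% ± 3.41). For Ccr9 the share of Ccr9-204 was 91.6% in library 1 and 59.7% in library 2. For Ccrl2 the leading transcript differed between libraries, with Ccrl2-203 at 33.1% and 50.3% and Ccrl2-202 at 46.1% and 26.5% in libraries 1 and 2.

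Ccr6 was the most divided, over 9 annotated transcripts. Ccr6-207 had the largest mean share of TPM, 28.7% ± 3.69, from 98.6 reads in library 1 and 90.1 in library 2. Ccr6-202 had 373 and 263 reads in the same libraries and a mean share of 26.7% ± 8.2. It led in library 1, at 32.5% against 31.3% for Ccr6-207, and Ccr6-207 led in library 2, at 26.1% against 20.9%. Ccr6-207 is 419 bases long and Ccr6-202 is 1398 bases long, so each read of the shorter one counts for more TPM. The effective length of Ccr6 was 1021 bases in library 1 and 1070 bases in library 2. Shares of this kind are model estimates from reads of 50 bases.

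**Figure D4:**
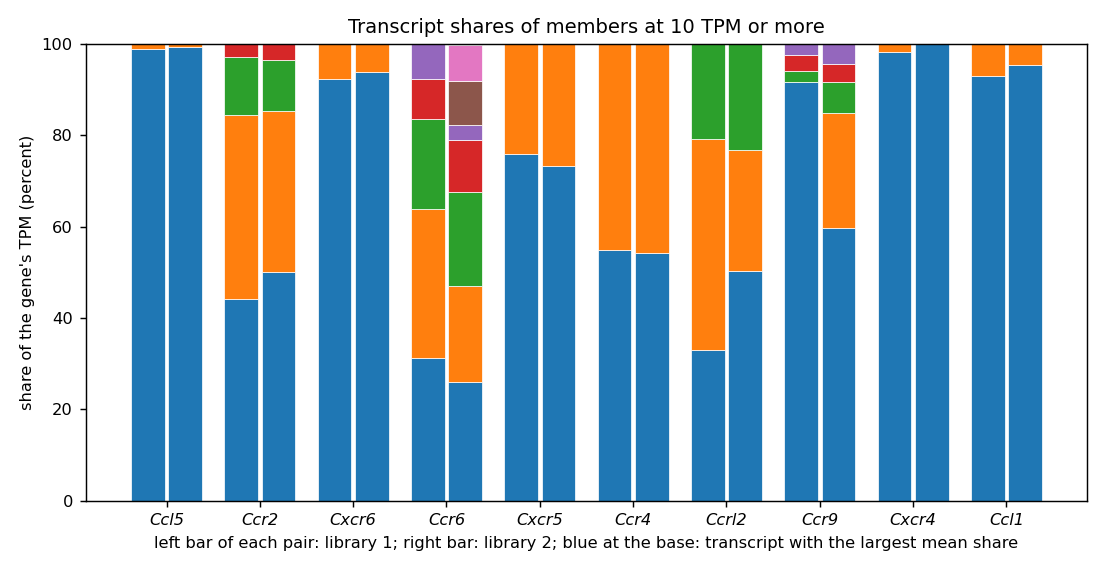
Share of each gene's TPM given to its annotated transcripts, stacked to 100 percent, for the 10 members at 10 TPM or more with several transcripts. The left bar of each pair is library 1 and the right bar library 2, and the base segment is the transcript with the largest mean share, from 99.2% in Ccl5 to 28.7% in Ccr6.

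The 2 libraries were compared gene by gene, which asks how far the technical replicates differ beyond counting error. Over 17271 genes, a two-sided exact test on binomial counts, adjusted by Benjamini-Hochberg, called 24.3%, so calls were common among all genes. Of the 25 members with 10 reads or more over both libraries, 10 were called (40%). Of these, 1 was higher in library 1, where 11.6% of all genes tested were, and 9 (36%) were higher in library 2, where 12.7% were. The median log2 ratio of library 1 over library 2 was -0.12 over the 25 members and 0.01 over all genes tested.

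Ccl3 had 8 reads in library 1 and 49 in library 2, a log2 ratio of -2.58 (exact binomial adjusted p = 4.15e-07). Ccl4 had 82 and 154 reads, a log2 ratio of -0.95 (exact binomial adjusted p = 1.94e-05). Xcl1 had 19 and 46 reads, a log2 ratio of -1.30 (exact binomial adjusted p = 0.00521). Among the other ligands Cxcl10 (log2 ratio -0.58) and Ccl5 (-0.13) were also higher in library 2, and Ccl1 (0.04), Ccl20 (-0.23) and Ccl25 (0.21) were not called. Among receptors, Ccr10 (-0.94), Ccr3 (-0.83), Ccr9 (-0.47) and Ccr6 (-0.24) were higher in library 2, and Ackr4 (2.10, from 15 and 3 reads) was higher in library 1. The adjusted p-values of these 7 members, from the same exact binomial test, ran from 7.89e-06 for Ccr9 to 0.0396 for Ackr4. The 2 highest receptors were not called, with log2 ratios of -0.04 for Cxcr3 and -0.07 for Ccr7. An exact test in edgeR that allows a dispersion of 0.01 left 2 of the 10 calls, Ccl3 and Ccl4, which is 8% of the 25 members against 2.85% of all genes tested. The binomial test on the whole-number table called the same 2 of 23 members tested (8.7%), against 9.95% of all genes tested there, so the members' share was near the background in that table.

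In the same libraries 2 of the 4 tested natural killer and cytotoxic T cell markers were called, both higher in library 2. Calls of markers are from the exact binomial test alone. It called 24.3% of all genes tested, 12.7% higher in library 2 and 11.6% higher in library 1. Prf1, which encodes perforin, had 3.88 and 7.56 TPM in libraries 1 and 2, and Cd8b1 had 9.94 and 14.8 TPM. Klrb1c had 1.1 and 1.99 TPM, Cd8a had 1.43 and 0.79 TPM, and Ncr1 had no reads. Of the monocyte and macrophage markers Lyz2, at 0.61 and 2.83 TPM, and Csf1r, at 0.04 and 0.32 TPM, were called higher in library 2, while Itgam had 0.71 and 0.45 TPM and Cd68 had 2.49 and 2.57 TPM. Calls were also common in the T cell list, where 6 of 7 markers were called, 1 higher in library 1 and 5 higher in library 2, among them Cd4 at a log2 ratio of -0.43. Of the dendritic cell markers Zbtb46, at 3.26 and 2.48 TPM, was called higher in library 1. The part of other cells in the differences of Ccl3, Ccl4 and Xcl1 was not tested.

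**Figure D5:**
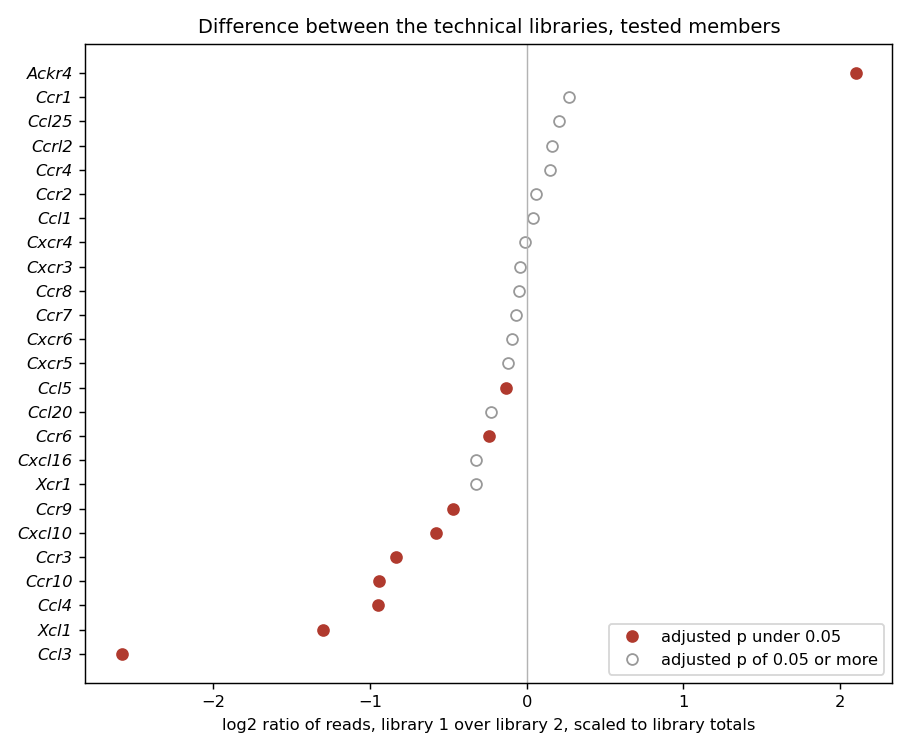
Log2 ratio of library 1 over library 2 for the 25 members with 10 reads or more, scaled to library totals, with filled points where the adjusted p is under 0.05. Of the 10 filled points, 9 lie left of 0, from Ccl3 at -2.58 to Ccl5 at -0.13, and Ackr4 lies right of it at 2.10.

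The whole-number table counted reads on GENCODE M4, with totals of 3478224 in library 1 and 3475360 in library 2. Over genes with 20 reads or more, it held a median of 40.1% and 40.4% of the reads of the first table. The 5th and 95th percentiles over these genes were 2.96% and 79.2% in library 1 and 2.78% and 79.3% in library 2. Of the members with 20 reads or more, Ccr8 in library 1 and Ccl1 in library 2 lay above that range and the others within it. Ccr8 kept 80.4% and 77% in libraries 1 and 2, Ccl1 kept 72.5% and 81.5%, and Ccr6 kept 67.8% and 64.5%. Cxcr3 kept 38.4% in each library and Ccr7 kept 33.2% and 32.7%. Ccl5 kept 23.7% and 23.6%, Ccr2 kept 20.7% and 22.2%, and Ccl25 kept 12.9% and 19.3%. In this table Ccl5 had 498 and 525 counts in libraries 1 and 2, and Cxcr3 had 1522 and 1524. Cxcr6 had 878 and 883 counts there, slightly above Ccr2 with 874 and 873. The sources used here do not state how it was counted or filtered, and the table leaves Cxcr1, Cxcr2, Ccl2, Cxcl12, Cxcl9, Ccl22 and Ackr2 at 0 in both libraries.

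A list of 43 genes for signalling from chemokine receptors and for processing of chemokines was also read. Of these, 40 (93%, against 46.2% of protein-coding genes) reached 1 TPM in both libraries. At 10 TPM the count was 33 (76.7%, against 29.5%), and at 100 TPM it was 9 (20.9%, against 5.25%). The list was chosen with earlier results of these data known, so its higher shares are not a result about chemokine signalling. The small GTPases Rac2 (3190 ± 160 TPM), Cdc42 (554 ± 7.41 TPM) and Rhoa (238 ± 21.9 TPM) were among the highest. Rgs1 (480 ± 33.1 TPM), Rgs10 (227 ± 6.29 TPM) and Rgs19 (152 ± 2.56 TPM), which end G protein signalling, and the Rac activator Dock2 (224 ± 6.04 TPM) also stood among the first 8. Of the inhibitory G protein subunits the chemokine receptors use, Gnai2 averaged 136 ± 4.38 TPM and Gnai3 79.7 ± 4 TPM, and Gnai1 had no reads in either library. The other genes at the low end were Grk3 and Rgs18, each at 0.02 TPM, the sulfotransferase Tpst1 at 1.34 ± 0.382 TPM and the receptor kinase Grk5 at 1.57 ± 0.622 TPM. Of the 40 tested, 14 (35%, against 24.3% of all genes tested) differed between libraries, 8 higher in library 1 and 6 higher in library 2.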

How the data were processed

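Polyadenylated RNA of 1 biological sample was sequenced as 2 technical libraries. For each, the authors deposited gene and transcript tables quantified on mm10 with GENCODE M21, per the sample's file listing, with the tool not given in the sources used here. Per the file headers these hold the expected count (estimated reads, not always whole), the TPM, the FPKM, the percent of a gene's TPM given to each transcript, and posterior means. The authors also deposited a whole-number count per gene on GENCODE M4, and 22195 of its 22457 identifiers matched M21. Interval bounds and posterior SDs were other deposited columns and were not used. Lengths minus effective lengths correspond to reads of 50 bases.

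The members and gene lists were chosen with earlier results of these data known. Every member may be named, and of the pathway list the 8 highest and 5 lowest. The rule also takes the highest and lowest of each marker list and the leading transcript of a gene. Gnai3 and the other markers and transcripts named were chosen after their values were seen. Rows that name no gene, 0.142% of reads in library 1 and 0.186% in library 2, stayed out of library totals and tests. Expected counts were rounded, and genes with a summed count of 10 or more were compared with library 1's share of reads, 50.7%, by an exact binomial test that doubles the smaller tail, with Benjamini-Hochberg adjustment at 0.05. Log2 ratios add 0.5 to each count. With 1 group of 2 technical libraries a quasi-likelihood fit could not be made. The p-values set the difference between the 2 technical libraries against counting error alone and hold no estimate of the spread between preparations or animals. Neighbours in the order by mean TPM were separated where the values of the 2 libraries did not overlap. A limit for 0 reads is 3 reads and covers counting error only. 50-base windows came from the GENCODE M21 transcripts, both strands, and promoter windows from RefSeq on GRCm38.p6 (for genes with several, the first listed). Tools were R 4.3.3, edgeR 4.0.16, DESeq2 1.42.0 (size factors), Python 3.11.15, numpy 2.4.6, pandas 2.3.3, scipy 1.17.1 and matplotlib 3.10.9. Alternatives covered the TPM level, posterior mean TPM, FPKM, scaling, filters, dispersion, the second table and each library alone.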

Additional observations from a re-analysis of the deposited data

How the results depend on the processing

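Counts of members, receptors, ligands and pathway genes at 1 TPM or more stayed within 1.5 times of the values given at 0.5 and 2 TPM, with posterior means, with FPKM, in each library alone and, at 1 CPM (reads scaled to the library total only) in place of TPM, in the whole-number table. In single libraries the count was 20 to 21 for the 39 members, 13 for receptors, 7 to 8 for ligands and 40 for pathway genes. The number of separated neighbours, 12, was 17 with posterior means, and 10 to 12 in single libraries, where non-overlapping exact Poisson intervals took the place of the 2 values. The ratio of summed receptors to summed ligands, 1.93, was 7 from the same reads without scaling by length, 9.73 from the whole-number table, also without that scaling, and 13.7 without Ccl5, and it was 2.02 in library 1 and 1.84 in library 2. The count of genes that differ between libraries, 4198, was 492 with edgeR's exact test at a dispersion of 0.01 and 1092 in the whole-number table, and the count of members, 10 of 25, was 2 of 25 and 2 of 23. The share of members called was 40% against 24.3% of all genes, 8% against 2.85% with edgeR, and 8.7% against 9.95% in the whole-number table. The cause of the lower counts in the whole-number table, which holds fewer reads, was not tested. By setting, 5 of 145 ratios of single members reversed, all in the whole-number table and none of them called: Ccr8 (0.05), Cxcr4 (0.61), Ccl1 (-0.08), Ccl20 (0.30) and Ccl25 (-0.31). Ccl3 and Ccl4 stayed called under the 6 settings, and Ccr10 and Ackr4 lost the call with no filter on low counts. The ratio with TMM or DESeq2 scaling changed no member's call. No paired analysis was possible because there is 1 group. Depth limits the 18 members that averaged under 1 TPM, none of which was separated from the next one below.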
